A study of Mus musculus with 17 samples.

Results

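Layer 2/3 excitatory nuclei were selected from sNucDrop-seq of mouse neocortex by the genes detected in each nucleus. A barcode was kept when it had 600 to 5000 genes and under 5% mitochondrial UMIs (unique molecular identifiers, each counted once per captured RNA molecule). It counted as layer 2/3 when at least 3 of 9 upper-layer genes had a UMI (Cux2, Rasgrf2, Enpp2, Calb1, Otof, Lamp5, Nectin3, Trpc6 and Pparg), with no UMI of Gad1, Gad2, Foxp2, Fezf2 or Rgs9 and at most 1 of Rorb. This rule took 3055 of 31486 kept nuclei, or 9.70%, out of 40000 barcodes in the tables. The nuclei came from 8 C57BL/6 male mice (substrain C57BL/6J in the methods) at postnatal day 80, of which 4 were control mice (1504 nuclei) and 4 had undergone chronic unpredictable stress (CUS, 1551 nuclei). CUS began at 9 to 10 weeks of age and lasted 12 days with 3 changing stressors per day, and cortex was taken 24 h after the last one. Control mice lived in another room and were handled every day, so room and handling belong to the contrast. Bulk nuclear RNA-seq of the medial prefrontal cortex (mPFC) from 4 control and 5 CUS mice, at postnatal day 90, provided values from other animals.

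Neurons of layers 2 and 3 are glutamatergic pyramidal cells that connect cortical areas, including the hemispheres through the corpus callosum, and receive input from layer 4. Their identity rests in part on the homeobox factors Cux1 and Cux2. In prefrontal cortex such neurons are known to lose dendritic branches and spines after repeated stress or corticosteroid exposure.

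The genes of the rule set the membership, so their levels are a description. Rasgrf2, a Ras exchange factor, had a UMI in 63.0% of the layer 2/3 nuclei. Enpp2, which encodes the secreted enzyme autotaxin, had one in 61.3% and Lamp5, a lysosome-associated membrane protein, in 60.1%. Nectin3, an adhesion molecule, was found in 51.7%, the calcium buffer Calb1 in 50.8%, Cux2 in 41.8%, the nuclear receptor Pparg in 39.0%, the cation channel Trpc6 in 33.4% and Otof, a calcium sensor of exocytosis, in 20.2%. Among nuclei with 2 or more Rorb UMIs and Slc17a7 but no Gad1, Gad2, Foxp2, Fezf2 or Rgs9 UMI (Rorb-gated, 1018 nuclei), the 9 genes were found in 3.14% (Otof) to 30.8% (Enpp2). Deep-layer-gated nuclei had at least 2 UMIs of Foxp2 and Fezf2 together, and Slc17a7, at most 1 of Rorb and none of Gad1, Gad2 or Rgs9. In these 573 nuclei the range was 1.57% (Otof) to 23.2% (Enpp2). Median depth was close in the 3 classes, with 3072 UMIs in layer 2/3, 3277.5 in Rorb-gated and 3078 in deep-layer-gated nuclei.

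Genes that the rule did not use set these nuclei apart from Gad-gated and Rgs9-gated nuclei, and from deep-layer-gated nuclei more than from Rorb-gated nuclei. Slc17a7, the vesicular glutamate transporter, had a UMI in 47.7%. In Gad-gated nuclei (2 or more UMIs of Gad1 and Gad2 together, none of Rgs9, 3066 nuclei, median 2253 UMIs), which should lack the transporter, Slc17a7 had a UMI in 11.6%, and in Rgs9-gated nuclei (2 or more UMIs of the striatal gene Rgs9) in 15.7%. Camk2a, a kinase of excitatory synapses, was found in 85.8% of layer 2/3, 46.3% of Gad-gated and 64.4% of Rgs9-gated nuclei. Arpp21, a phosphoprotein of forebrain neurons, hardly differed from Rgs9-gated nuclei, at 97.6% of layer 2/3 and 95.3% of Rgs9-gated nuclei. Cux1 was found in 41.4% of layer 2/3 and 17.3% of deep-layer-gated nuclei, but also in 39.8% of Rorb-gated nuclei. Of 17 upper-layer genes outside the rule, 15 were found in a larger share of layer 2/3 than of deep-layer-gated nuclei and 12 in a larger share than of Rorb-gated nuclei. The transcription factor Rfx3 was found in 52.0%, against 34.3% of Rorb-gated nuclei, while the potassium channel Kcnh5 was found in 18.0% against 51.6% and Plcxd2 in 5.89% against 24.1%. The POU factors Pou3f1, Pou3f2 and Pou3f3 were also less frequent than in Rorb-gated nuclei. The 10 layer 6 genes summed to 261 CPM (UMIs of a gene scaled to a common library total) against 2127 in deep-layer-gated nuclei, and the 15 interneuron genes to 604 against 8748 in Gad-gated nuclei. The layer 5 list reached 1264 CPM in layer 2/3 and 1105 in deep-layer-gated nuclei, but its 9 genes other than Fam19a1 summed to 218 and 643 CPM. The claustrum list was at 403 CPM in layer 2/3, 233 in deep-layer-gated and 210 in Rorb-gated nuclei. Some single markers of other types were common. Fam19a1, on the layer 5 list, was found in 69.6% and Kcnc2, a potassium channel on the interneuron list, in 52.6%. The myelin gene Mbp had a UMI in 17.5% of layer 2/3, 15.7% of Rorb-gated and 14.9% of Gad-gated nuclei, so its share hardly differed between neuronal classes.

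**Figure D1:**
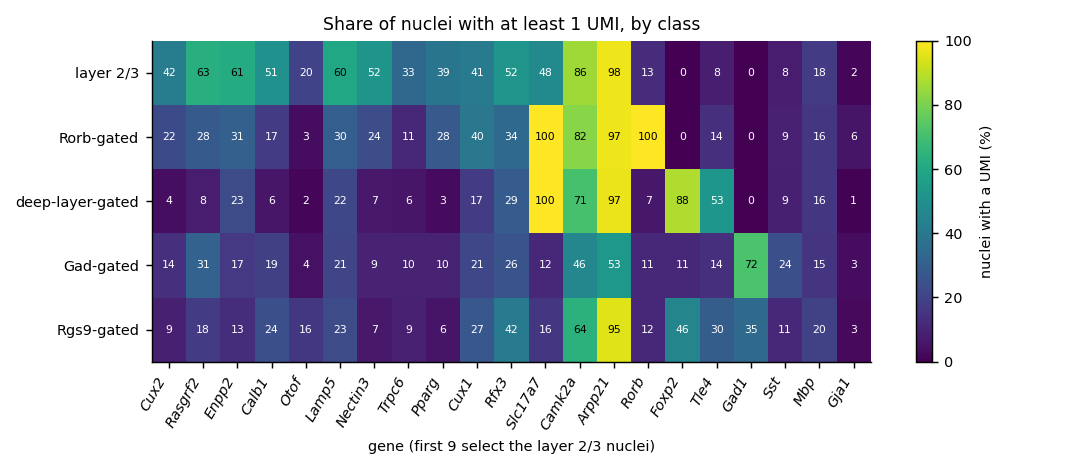
Percent of nuclei with at least 1 UMI of each gene (columns) in the 5 gated classes (rows), with nuclei of all 8 mice pooled. The first 9 genes selected the layer 2/3 nuclei, and Slc17a7, Rorb, Foxp2 and Gad1 entered the gates of other classes. Arpp21 was found in 97.6% of layer 2/3 and 95.3% of Rgs9-gated nuclei, and Mbp in 17.5% of layer 2/3 nuclei.

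The edge of the rule was gradual. Of the members, 1216 (39.8%) held exactly 3 of the 9 genes and 10 held all 9. Median depth rose from 2494 UMIs at 3 genes to 7180 at 9. Just outside, 2231 nuclei that met the other conditions held 2 of the genes, at a median of 2106 UMIs. Slc17a7 was found in 42.9% of the nuclei with 3 genes and in 37.4% of those with 2. Of 5623 nuclei with at least 3 of the 9 genes, 24.4% had a Gad1 or Gad2 UMI, 17.0% had 2 or more Rorb UMIs, 12.4% had Rgs9, 8.91% Foxp2 and 3.08% Fezf2. A single Rorb UMI was carried by 389 members (12.7%).

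Beyond the rule, the genes with the largest ratio of pooled CPM over Rorb-gated nuclei, among genes found in at least 10% of members, were Evc2 (5.00-fold, a component of the primary cilium), Ccbe1 (4.66-fold), Arhgap6 (4.41-fold, a GTPase-activating protein), Gucy1a1 (3.91-fold, the alpha subunit of the nitric oxide receptor) and Matn2 (3.85-fold, a matrix protein). They were followed by Wfs1 (3.68-fold, an endoplasmic reticulum protein) and 9 others down to 3.26-fold, among them the opioid peptide precursor Penk (3.40-fold). Over deep-layer-gated nuclei the largest ratios belonged to Zfhx4 (25.5-fold), Igfn1 (18.5-fold) and Stard8 (14.6-fold), and over Gad-gated nuclei to Igfn1 (8.13-fold). These values describe nuclei that the rule had already separated by their RNA.

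The mice gave between 202 and 566 layer 2/3 nuclei each, with 707601 to 2041327 UMIs per mouse and 10578802 in all. All 8 mice were counted separately, as labelled, and every pair within a group differed beyond sampling noise (chi-square per degree of freedom 1.52 to 3.66). Barcodes that occurred in more than 1 mouse numbered 37 among the kept nuclei and 1 among the members. A doublet score above 0.2 was reached by 288 members (9.43%) and by 14.2% of kept nuclei, and these nuclei were kept in the main test. Markers of other cell types were present at low level. The summed choroid plexus list (8 of 8 genes with a UMI, Ttr in 2.75% of members) did not overlap between groups, at 5.20 to 7.07 CPM in control and 18.7 to 31.4 CPM in CUS mice. The summed oligodendrocyte list reached 845 CPM in CUS mouse 1, against 352 to 541 CPM in control mice. The study ran these mice in 2 batches, each of 2 control and 2 CUS mice, and had batch in its model, but the labels do not assign mice to them. The mitochondrial share of member UMIs divided the mice into 4 (control mice 1 and 4, CUS mice 1 and 2) at 0.273% to 0.388% and 4 at 0.535% to 0.592%. Deviations from the group means correlated at 0.078 to 0.30 over the 8 control and CUS pairs on the same side of this split and at -0.37 to 0.0097 over the 8 pairs across it, as a description over genes. Whether this split is that of the batches was not tested, and it was used only in alternatives added after the data were seen.

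The share of layer 2/3 nuclei among kept nuclei asks whether CUS changed the recovery of this class. It was 8.85%, 9.15%, 11.2% and 8.91% in control mice and 8.21%, 8.201%, 10.2% and 11.6% in CUS mice. The groups overlapped, with means of 9.53% ± 1.12 and 9.57% ± 1.67 (SD, n = 4 each) and a two-sided exact permutation p of 1. Within the split by mitochondrial share the difference was -0.673 points in the mice of low share and 0.751 points in the others. Clopper-Pearson 95% intervals, which cover counting error only, ran from 7.77% to 10.2% in the mouse with the fewest nuclei (control mouse 4). Shares of captured nuclei do not give cell numbers in the tissue. The 9 genes of the rule, which are a description here, had mean CPM in CUS mice near or below those of control mice, except Cux2 (164 ± 5.79 and 173 ± 14.2), Otof (78.3 ± 9.17 and 85.3 ± 16.8) and Lamp5 (285 ± 49.3 and 361 ± 61.7). Trpc6 had a narrow range in control mice only, at 223 to 239 CPM in control and 101.1 to 236 CPM in CUS mice. Rule genes per member averaged 4.08 to 4.45 in control and 3.99 to 4.16 in CUS mice (exact permutation p = 0.0857). The 17 upper-layer genes outside the rule summed to 2313 to 3164 CPM in control and 1950 to 2538 CPM in CUS mice. Of 14 tested for CUS below, 7 were negative, none was called and 6 had an unadjusted p below 0.05 in edgeR's quasi-likelihood test. Over all 6181 tested genes, 2992 were negative, 0.89% were called and 670 had such a p. In summed UMIs, a change in the mix of members cannot be told apart from a change within them.

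Whether RNA levels of these nuclei differed with CUS was tested on UMIs summed per mouse. In all, 6181 genes were tested and the 15 genes of the rule were left out. With edgeR's quasi-likelihood test, an FDR (Benjamini-Hochberg adjusted p) below 0.2 was reached by 55 genes, or 0.89% of those tested. Of these, 34 were higher in CUS mice (0.55% of tested genes) and 21 lower (0.34%). The log2 fold changes of the 55 (CUS against control) had sizes from 0.44 to 0.90 (median 0.66), while the median over all tested genes was 0.01. CPM of the groups were fully separate for 44 of the 55 genes, and for 5.05% of all tested genes. An FDR of 0.05 was met by 10 genes, and 670 genes had an unadjusted p below 0.05. DESeq2, with its own scaling, called 47 genes, 22 higher and 25 lower, of which 40 were among the 55. In the members without a choroid plexus UMI, an alternative added after the data were seen, 69 genes passed. The count rested on single mice. It rose to 624 without CUS mouse 2, with all 55 among them, and was 15 without CUS mouse 1, 15 without CUS mouse 4, 18 without control mouse 2, 22 without control mouse 4 and 23 without control mouse 1. With a term for the split by mitochondrial share, 267 genes passed (4.32% of those tested), 147 higher (2.38%) and 120 lower (1.94%), with all 55 among them in the same direction. In each of the 8 fits that left out 1 mouse, 9 of the 55 stayed past the threshold, among them Mical2, Slc4a4, Slit2, Egr1, Prr16, Vgf, Dnajc21 and Man1a.

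The leading 10 genes per direction were picked among called genes with separate groups. Their lack of overlap, given below, was thus a condition and not a further result. Of the genes that rose, Egr1, Vgf and Nptx1 belonged to the activity-regulated list. Egr1 (ENSMUSG00000038418, mm10 chromosome 18, 34859823 to 34864984), an immediate early transcription factor, stood at 50.9, 71.8, 115 and 92.0 CPM in control mice and at 177, 147, 151 and 153 CPM in CUS mice. The groups did not overlap, and its log2 fold change of 0.90 ± 0.17 (standard error, FDR 0.0294) was the largest among the 55 genes. Vgf (chromosome 5, 137026392 to 137033351), the precursor of secreted peptides, had 45.1, 44.0, 44.9 and 47.4 CPM in control mice and 83.7, 60.5, 81.5 and 77.1 CPM in CUS mice. The control mice lay within a narrow band and every CUS mouse above it (log2 fold change 0.76 ± 0.15, FDR 0.0424). With 651 UMIs of Vgf over the 8 mice, how close the control mice lie is itself subject to counting error. The share of nuclei with a UMI overlapped between groups for both genes. For Vgf it was 11.8% to 13.9% in control and 11.7% (CUS mouse 2) to 23.1% in CUS mice. For Egr1 it was 11.1% to 28.8% in control and 27.6% to 37.2% in CUS mice. Nptx1, a secreted pentraxin that binds AMPA receptors, rose from 53.5 ± 8.04 to 82.2 ± 4.32 CPM (n = 4 each, FDR 0.144).

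Mical2 (ENSMUSG00000038244, chromosome 7, 112225856 to 112355194), a monooxygenase that takes actin filaments apart, had the smallest p of all tested genes. Control mice had 145, 137, 162 and 197 CPM and CUS mice 321, 289, 238 and 268 CPM. The groups did not overlap (log2 fold change 0.81 ± 0.13, FDR 0.0182), and a Mical2 UMI was found in 37.8% of control and 53.3% of CUS nuclei on average. Synj2, a phosphoinositide phosphatase, had 27.8, 37.1, 47.8 and 40.2 CPM in control and 67.8, 66.9, 62.1 and 79.5 CPM in CUS mice, again without overlap (0.83 ± 0.17, FDR 0.0430). Baiap2, which couples membrane curvature to actin and is found at postsynaptic densities, had 164, 164, 167 and 181 CPM in control and 289, 229, 219 and 238 CPM in CUS mice (0.53 ± 0.12, FDR 0.0789). As with Mical2 and Synj2, separate groups were a condition for naming Baiap2. Enc1, an actin-binding kelch protein, rose from 169 ± 10.5 to 245 ± 23.5 CPM and Asap2, a GTPase-activating protein for Arf, from 54.6 ± 7.52 to 84.5 ± 7.26 CPM (both FDR 0.0704).

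Rims3, of the presynaptic active zone family of Rim proteins, rose from 25.2 ± 2.06 to 43.0 ± 5.54 CPM (0.82 ± 0.18, FDR 0.0704). Its 369 summed UMIs were near the filter of 10% of the nuclei, which its level in CUS mice helped it to pass. Rims3 kept its call in 6 of 8 fits that left out 1 mouse, and had no value after thinning. Nsg1, an endosomal protein that takes part in recycling AMPA receptors, rose from 70.8 ± 7.65 to 112 ± 26.6 CPM (FDR 0.135), with CUS mouse 1 alone at 151 CPM. Dnajc21, a cochaperone of ribosome assembly, had 156, 108, 126 and 139 CPM in control and 226, 244, 177 and 193 CPM in CUS mice. Its groups were separate too (0.68 ± 0.14, FDR 0.0424). Of the other higher genes, Synj2 kept its call in 7 of the 8 fits, Enc1 and Asap2 in 6, Baiap2 and Nsg1 in 4 and Nptx1 in 3. Like Rims3, Vgf, Synj2, Asap2, Nsg1 and Nptx1 had no value after thinning.

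**Figure D2:**
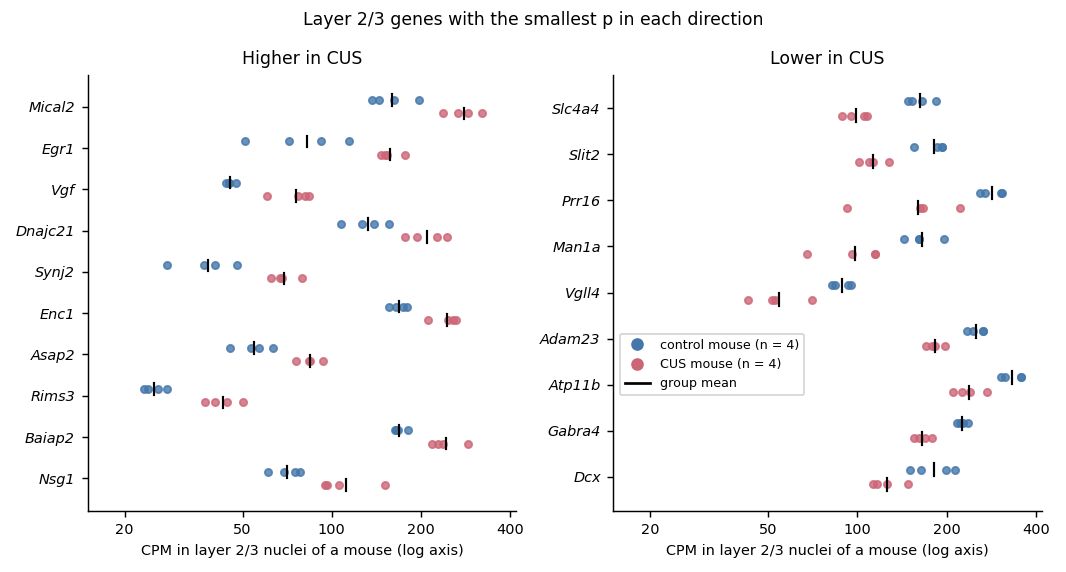
CPM in layer 2/3 nuclei of each mouse (log axis) for 10 higher and 9 lower genes, those of smallest p among called genes with separate groups. Blue points are the 4 control mice, red points the 4 CUS mice and black bars the group means. Mical2 lies at 137 to 197 CPM in control and 238 to 321 CPM in CUS mice, and Prr16 has the widest spread among CUS mice of the lower genes, from 92.0 to 223 CPM.

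The genes that fell included Slit2, Adam23, Dcx, Slc4a4, Gabra4 and Atp11b. Separate groups were again a condition for naming them. Slit2 (ENSMUSG00000031558, chromosome 5, 47983138 to 48307733), a secreted ligand of Robo receptors, had 185, 193, 192 and 155 CPM in control mice and 113, 109, 100.9 and 128 CPM in CUS mice. The groups were apart (log2 fold change -0.69 ± 0.12, FDR 0.0283). Adam23 (chromosome 1, 63445891 to 63596276), a membrane receptor for the secreted protein Lgi1, had 245, 234, 265 and 264 CPM in control and 171, 198, 183 and 179 CPM in CUS mice (-0.47 ± 0.11, FDR 0.135). Dcx (chromosome X, 143855842 to 143933311), a microtubule-associated protein of migrating neurons, fell from 182 ± 29.2 to 126 ± 15.7 CPM (-0.53 ± 0.14, FDR 0.162). CUS mouse 2, at 148 CPM, came close to the lowest control mouse, at 151 CPM.

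Slc4a4 (ENSMUSG00000060961, chromosome 5, 88886818 to 89239653), the sodium bicarbonate cotransporter, had 153, 165, 148 and 184 CPM in control and 95.4, 88.7, 107 and 105 CPM in CUS mice. The groups did not overlap (-0.69 ± 0.13, FDR 0.0283). Astrocytes are a main site of Slc4a4, and the 10 other genes of the astrocyte list, each with a UMI in members, summed to 493 to 578 CPM in control and 422 to 581 CPM in CUS mice. In the 940 members without a UMI of any other astrocyte-list gene, the log2 fold change of Slc4a4 was -0.94 (FDR 0.047, an alternative added after the data were seen), whereas it did not pass after thinning to 1000 UMIs (FDR 0.418). That selection also removed neurons, since Slc1a2 on the list had a UMI in 58.6% of members and 80.3% of Rorb-gated nuclei, and the part of astrocyte RNA in the Slc4a4 values was not tested. Gabra4, the alpha 4 subunit of GABA-A receptors, had 216, 237, 222 and 227 CPM in control and 155, 168, 179 and 161 CPM in CUS mice (-0.45 ± 0.11, FDR 0.162). Atp11b, a phospholipid flippase, fell from 334 ± 27.6 to 238 ± 27.1 CPM (FDR 0.142). Its groups, like those of Gabra4, were apart.

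Man1a, a mannosidase of the Golgi, had 143, 162, 161 and 195 CPM in control and 67.8, 114, 96.0 and 115 CPM in CUS mice (-0.74 ± 0.15, FDR 0.0430). Prr16 had 259, 307, 305 and 270.2 CPM in control and 92.0, 223, 162 and 166 CPM in CUS mice (-0.85 ± 0.17, FDR 0.0424). CUS mouse 1 was the lowest by far, and the other CUS mice still lay below every control mouse. Vgll4, a cofactor of TEAD transcription factors, fell from 88.4 ± 6.31 to 54.3 ± 11.5 CPM (-0.70 ± 0.16, FDR 0.0704). Slc4a4 was not alone in failing after thinning. Man1a (FDR 0.418), Adam23 (FDR 0.365), Dcx (FDR 0.400) and Atp11b (FDR 0.496) did not pass there either. Slit2 (FDR 0.0313), Prr16 (FDR 0.0183) and Gabra4 (FDR 0.0872) passed, and Vgll4 had no value. With 1 mouse left out, Vgll4 kept its call in 6 of 8 fits, Atp11b in 4, Adam23 in 3, and Gabra4 and Dcx in 2.

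Groups of genes were described by counts and medians only, since the lists were chosen with results of these data known. Of 60 activity-regulated genes, 25 had enough UMIs, and 3 of these rose (Egr1, Vgf and Nptx1), none fell and 22 did not pass. Over all tested genes, 0.55% were called higher and 0.34% lower. Of the 25, 19 were positive (3189 of all 6181 tested genes). The median log2 fold change of the list was 0.13, which dropped to 0.03 when a trend with gene length was removed. Among 23 genes of neuropeptides and granules, 15 were tested and 2 rose (Vgf and Nptx1, on both lists), beside 0.55% of all tested genes. The median of the 15 was 0.06. Mical2 was the only 1 of 5 tested genes of the Mical family and Srf cofactors to pass, beside 0.89% of all tested genes. Actb, a target of Srf, had 0.18 (FDR 0.651).

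The synapse lists are set beside all tested genes, of which 0.55% were called higher and 0.34% lower, with 3189 of 6181 positive. Of 46 tested genes of excitatory synapse scaffold and adhesion, Adam23 fell, none rose, and 45 did not pass, with a median of -0.01 that turned to 0.07 with the length trend removed and to 0.01 without TMM factors. Homer1, a postsynaptic scaffold, had 207, 287, 285 and 194 CPM in control and 335, 302, 351 and 351 CPM in CUS mice. The groups did not overlap, yet its FDR was 0.233 (log2 fold change 0.44 ± 0.13), or 0.0407 with the split by mitochondrial share as a term. None of 19 tested glutamate receptor genes passed, with 15 negative and a median of -0.18 (-0.02 with the length trend removed). The lowest p among them belonged to Grm3, a metabotropic receptor (-0.49, FDR 0.252), and Grin3a, an NMDA receptor subunit (-0.56, FDR 0.363), and both overlapped between groups. With the split by mitochondrial share as a term, 7 of the 46 scaffold and adhesion genes passed, and Grm3 passed among the 19 receptors (FDR 0.0727), beside 4.32% of all tested genes.

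The next lists stand beside the same shares of all tested genes, 0.55% called higher and 0.34% called lower. In the Slit, Robo and guidance list, Slit2 fell and 12 of 13 genes did not pass, among them the netrin receptor Unc5d (-0.42, FDR 0.232). The median was -0.22 (-0.06 with the length trend removed). Dcx fell among 6 doublecortin and astrotactin genes, while Astn2 had -0.30 (FDR 0.363). The 4 tested IgLON adhesion genes were all negative (2992 of all 6181 tested genes) without passing, with Lsamp at -0.34 (FDR 0.369) and Negr1 at -0.34 (FDR 0.363). Their median of -0.22 went to 0.00 with the length trend removed. None of 12 tested corticosteroid response genes passed, including the glucocorticoid receptor Nr3c1 (-0.23, FDR 0.492) and its target Klf9 (0.23, FDR 0.542), and the median was -0.01 (0.01 with the length trend removed). Of 27 tested cytosolic ribosomal protein genes, Rps15 rose (0.65, FDR 0.189), 26 were positive (3189 of all 6181 tested genes), and the median was 0.32, or 0.11 with the length trend removed, when Rps15 no longer passed. The summed ribosomal list overlapped between groups, at 1668 to 1924 CPM in control mice and 2208 to 2629 CPM in 3 CUS mice, while CUS mouse 2, at 1638 CPM, lay below every control mouse. The symbol pattern of this list also matched 4 S6 kinase genes, which were left out after the data were seen (median 0.30 with them). With the split by mitochondrial share as a term, 3 of the 13 guidance genes, 2 of the 6 doublecortin and astrotactin genes, 1 of the 4 IgLON genes (Negr1) and 6 of the 27 ribosomal protein genes passed, beside 4.32% of all tested genes.

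**Figure D3:**
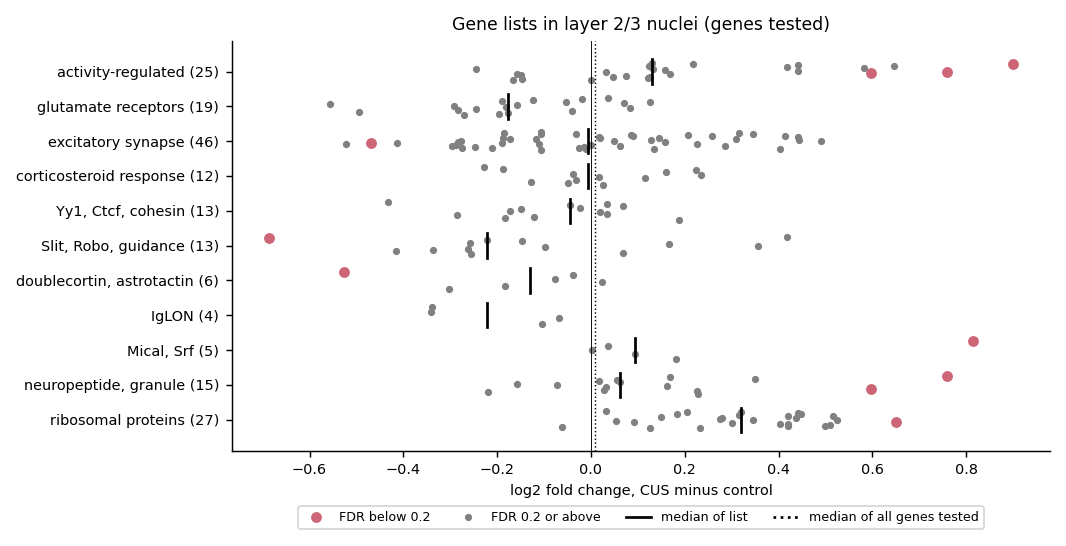
Log2 fold change (CUS minus control) of each tested gene in 11 gene lists, with the number of tested genes in parentheses. Red points passed an FDR of 0.2 in edgeR's quasi-likelihood test, grey points did not, black bars are list medians and the dotted line is the median of all 6181 genes. Ribosomal protein genes have the highest median (0.32) and the Slit, Robo and IgLON lists the lowest (-0.22), before any adjustment for gene length.

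The changes were ordered by the genomic length of the gene. Tested genes were divided by length into 4 bins of 1529 or 1530 genes. Median log2 fold change was 0.15 in the shortest bin (up to 18.6 kb), 0.04 and -0.03 in the middle bins, and -0.11 in the longest (from 100.7 kb). Of the genes called higher that had a length, 16 of 33 were in the shortest bin and 5 in the longest. Of the 21 called lower, none was in the shortest and 14 were in the longest. Genes of the longest bin took 38.9% to 44.6% of UMIs in control mice and 34.4% to 40.7% in CUS mice, so the groups overlapped in this measure. With a length trend fitted and removed for each mouse, an alternative added after the data were seen, 47 genes passed and 36 of them were among the 55. Mical2, Egr1, Vgf, Slc4a4, Slit2 and Prr16 kept their calls, while Nptx1 and Rps15 lost theirs and Homer1 gained one (0.49, FDR 0.133).

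Yy1, a zinc finger factor that joins enhancers to promoters, was compared because the study singles it out in its own cluster of these neurons. A Yy1 UMI was found in 23.9%, 23.3%, 20.7% and 19.3% of the layer 2/3 nuclei of control mice and in 18.6%, 12.7%, 15.2% and 18.6% of those of CUS mice. Every CUS mouse lay below every control mouse, and the means differed by -5.55 percentage points (21.8% ± 2.18 and 16.3% ± 2.86, n = 4 each, two-sided exact permutation p = 0.0286, the smallest this design can give). In summed UMIs, Yy1 (ENSMUSG00000021264, chromosome 12, 108792973 to 108820148) did not pass (log2 fold change -0.43, FDR 0.363), although its groups, at 71.9 to 100.6 CPM and 50.04 to 67.8 CPM, did not overlap either. With the split by mitochondrial share as a term it passed (FDR 0.164), and the share differed by -5.95 points within the mice of low mitochondrial share and -5.15 points within the others (exact permutation p = 0.0556 within the split, the smallest it can give). The separation in shares was lost with at least 2 or at least 4 of the 9 genes required (exact permutation p = 0.0857 and 0.114), with the doublet filter (0.0571) and when all nuclei were thinned to 1000 UMIs before the rule was applied (-2.01 points, 0.229). It was kept in nuclei with at least 1000 genes (-6.61 points, exact permutation p = 0.0286). In members thinned to 1000 UMIs it was kept only narrowly (7.63% and 5.86%, exact permutation p = 0.0286). There the lowest control mouse was at 6.78% and the highest CUS mouse at 6.71%, in a single random thinning that was not planned. Median UMIs per member nucleus were 2600 to 3337 in control and 2678 to 3261 in CUS mice.

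The difference in the Yy1 share was not shown to be particular to layer 2/3. It was -4.86 points in Rorb-gated, -6.19 in deep-layer-gated and -1.52 in Gad-gated nuclei. In each of these classes the groups overlapped (exact permutation p = 0.4, 0.257 and 0.543). Shares in deep-layer-gated nuclei were 11.4% to 22.0% in control and 2.99% to 22.7% in CUS mice. The log2 fold change of Yy1 was -0.30 ± 0.26, -0.04 ± 0.34 and -0.05 ± 0.16 in the same order, against -0.43 in layer 2/3. The difference in share from layer 2/3 had an exact permutation p of 0.857, 0.914 and 0.257. Of 13 tested genes of Yy1, Ctcf and cohesin, none passed, beside 0.89% of all tested genes. Ctcf had 0.03 (FDR 0.949) and turned negative under some alternatives, and Wapl, which releases cohesin, had -0.29 (FDR 0.445). Alcam, an adhesion molecule that the study names, had -0.29 (FDR 0.390).

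To ask whether the CUS effect was particular to layer 2/3 nuclei, the difference of the effect between classes was tested within the same mice. Against deep-layer-gated nuclei, 0 of 6839 genes passed an FDR of 0.2 (0%) in edgeR's quasi-likelihood test, with 289 at an unadjusted p below 0.05, and the likelihood ratio test called 4. Against Rorb-gated nuclei 6 of 6744 passed (0.089%), none of them among the 55. Among these were Slc1a3 (difference -1.63), Luzp2 (-0.82), Gpc5 (-1.01) and Lsamp (-0.35), of which Slc1a3 and Gpc5 are on the astrocyte list. None of the 6744 genes passed once nuclei with a doublet score above 0.2 were left out.

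Against Gad-gated nuclei 20 of 6539 genes passed (0.306%). Among them were 9 of the 55, which had been chosen for their change in layer 2/3 and so for a part of this difference. Slc4a4 had -0.69 in layer 2/3 and 0.03 ± 0.14 in Gad-gated nuclei (difference -0.66 ± 0.14, FDR 0.0574). Its value in Rorb-gated nuclei was 0.02 ± 0.18, and that difference did not pass (FDR 0.225). Asap2 had 0.67 and -0.13 ± 0.18 (difference 0.80 ± 0.18, FDR 0.0586), Man1a -0.74 and -0.10 ± 0.14 (difference -0.62 ± 0.14, FDR 0.0586) and Synj2 0.83 and -0.11 ± 0.21 (difference 0.94 ± 0.22, FDR 0.0892). The other 5 were Dnajc21, Lrif1, Ndst4, Cdh9 and Trpm3. Without control mouse 2 the number of called differences was 4, and without control mouse 3 it was 12.

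For 14 of the 19 genes plotted by mouse, no difference from another class was called. Mical2 had 0.63 ± 0.16 in Rorb-gated, 0.53 ± 0.21 in deep-layer-gated and 0.57 ± 0.15 in Gad-gated nuclei. Prr16 had -0.69 ± 0.18, -0.85 ± 0.26 and -0.58 ± 0.16 in the same order. Egr1 had 0.42 ± 0.21, 0.24 ± 0.23 and 0.40 ± 0.21, against 0.90 in layer 2/3, and the difference of 0.66 ± 0.20 from deep-layer-gated nuclei did not pass (FDR 0.954). When each class was tested alone, 2 genes passed in Rorb-gated and 0 in deep-layer-gated and Gad-gated nuclei, with 492, 404 and 422 genes at an unadjusted p below 0.05. Counts of calls in separate fits are no test of a difference between classes.

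**Figure D4:**
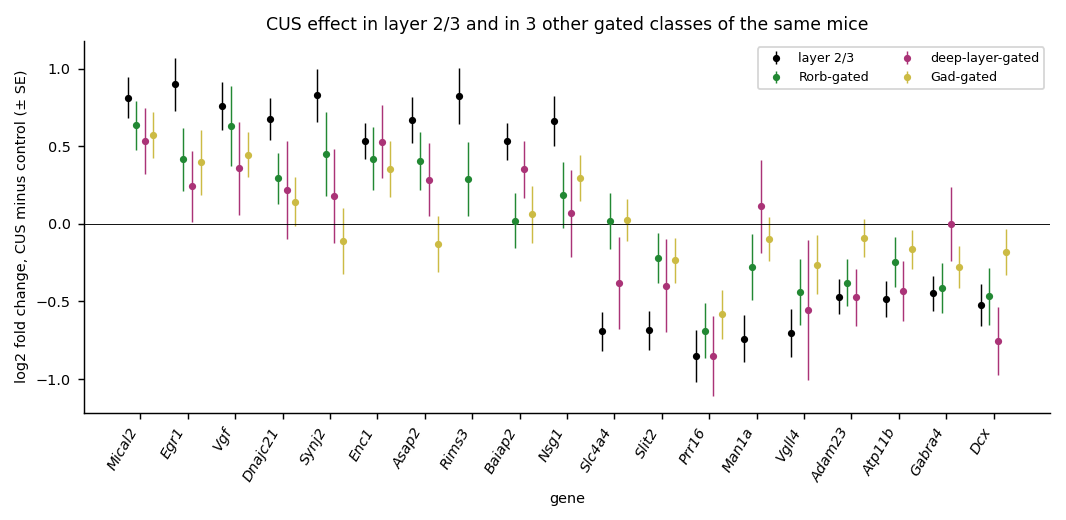
Log2 fold change (CUS minus control, ± standard error) of the 19 leading layer 2/3 genes in layer 2/3 nuclei (black) and in Rorb-gated (green), deep-layer-gated (purple) and Gad-gated (yellow) nuclei of the same 4 control and 4 CUS mice. Genes were chosen for their layer 2/3 values, and a point is missing where a class had too few UMIs. Mical2 and Prr16 share their direction in all 4 classes, whereas Asap2 and Synj2 lie below 0 in Gad-gated nuclei.

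The mPFC bulk libraries were from other mice, which had gone through behavioral tests and were taken 24 h after the last test rather than after the last stressor. They also came from another dissection and all cell types of the tissue, so fewer cells of a type and less RNA per cell cannot be told apart there. With 18394 genes tested, 606 (3.29%) passed an FDR of 0.05 in edgeR's quasi-likelihood test. Of the 55 layer 2/3 genes, 54 had a bulk value and 47 of these had the same direction, 27 of 33 among those higher in CUS and 20 of 21 among those lower. Over all genes tested in layer 2/3 nuclei, 3663 of 6112 had the same direction in bulk. A bulk call in the same direction was made for 9 of the 54 and in the opposite direction for 0, while over all 6112 genes these numbers were 177 and 70.

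The 9 genes included Mical2 (bulk log2 fold change 0.53 ± 0.13, FDR 0.0476), Vgf (0.59 ± 0.14, FDR 0.0465), Slit2 (-0.49 ± 0.11, FDR 0.0368), Slc4a4 (-0.48 ± 0.11, FDR 0.0372) and Adam23 (-0.33 ± 0.08, FDR 0.0453). Gk, Mir124a-1hg, Bhlhe40 and Ndst4, which are named because they passed in both data sets, completed them. Slc4a4 had 262, 257, 209 and 309 CPM in bulk control mice and 199, 213, 195, 159 and 164 CPM in bulk CUS mice, and these groups overlapped only through 1 control and 1 CUS mouse. Ndst4, a heparan sulfate sulfotransferase, had the largest bulk change (-3.59 ± 0.58, FDR 0.00968). Its control mice ranged from 9.32 to 102 CPM and its CUS mice from 2.98 to 6.50 CPM. In layer 2/3 nuclei Ndst4 had -0.90 (FDR 0.179), and the groups overlapped.

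Other leading genes did not pass in bulk. Egr1 had -0.01 ± 0.09 (FDR 0.960), Synj2 0.01 ± 0.09 (FDR 0.961) and Man1a 0.05 ± 0.11 (FDR 0.828). Homer1, at 0.44 in layer 2/3, fell in bulk from 506 to 632 CPM in control mice to 400.2 to 498 CPM in CUS mice (-0.35 ± 0.08, FDR 0.0402). Alcam, at -0.29 in layer 2/3, fell in bulk (-0.31 ± 0.08, FDR 0.0465), as did 5 of 5 CUS mice against the control mean. Yy1 had -0.07 in bulk (FDR 0.442).

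**Figure D5:**
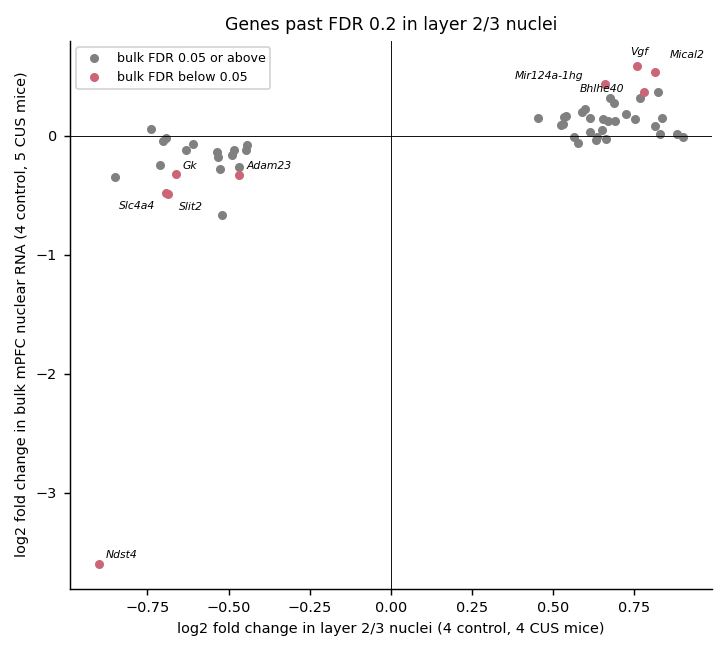
Log2 fold change in bulk mPFC nuclear RNA (4 control, 5 CUS mice) against that in layer 2/3 nuclei (4 control, 4 CUS mice) for the 54 genes past an FDR of 0.2 in layer 2/3 nuclei that have a bulk value. Red points passed an FDR of 0.05 in bulk and are named. All 9 lie in the quadrants of shared direction, and Ndst4 is the point at -3.59.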

How the data were processed

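The sNucDrop-seq tables hold UMI counts, which the authors made from reads mapped uniquely to mm10 on the annotated strand (exons and introns, Gencode annotation). The bulk tables hold read counts per gene, which the authors made from unique alignments to mm10. The submitters' processing notes name STAR, Seurat and edgeR without versions. Both were used here as deposited. UMIs of the members were summed per mouse, and genes with summed UMIs above 10% of the number of nuclei were kept. The 15 genes of the selection rule were left out of the tests. Counts were scaled with TMM factors and tested with edgeR 4.0.16 (R 4.3.3) by the quasi-likelihood test with condition as the term, at a Benjamini-Hochberg FDR of 0.2. Differences between classes were tested with a term for each mouse and a class by condition term. Bulk libraries, of 26188825 to 30525015 reads, were tested in the same way at an FDR of 0.05, with the default expression filter. DESeq2 1.42.0 was an alternative. Doublet scores were computed per mouse and used in an alternative at 0.2. Intervals are Clopper-Pearson at 95%. Batches of single mice are not given in the labels and were not in the main model, and a split of the mice at the widest gap in mitochondrial share was an alternative added after the data were seen. The labels do not say more of how mice were replicated, so p-values measure the spread between these mice.

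The named genes were the 10 per direction of smallest p among called genes with separate groups, the 2 of smallest p in each pathway list, genes that the study names, the 5 of smallest p for each class difference, and the 15 of largest ratio over Rorb-gated nuclei. Other genes were named after their values were seen, and results for some genes are not reported here. The members, the lists and these rules were chosen with earlier results of these data known. All scripts that test many genes were tested on simulated data.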

Additional observations from a re-analysis of the deposited data

Results flagged for a closer look

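In 4 of 76 groups of 4 mice, a single mouse stood apart from the other 3 by more than the 95% limit of Dixon's gap test, and chance alone gives such a gap in about 1 in 20 groups. Yy1 was at 100.6 CPM in control mouse 1 and at 71.9 to 72.7 CPM in the other control mice. Nptx1 was at 65.46 CPM in control mouse 2 and at 48.6 to 51.3 CPM in the others. Ctcf was at 138.9 CPM in CUS mouse 2 and at 105 to 108 CPM in the others. The share of layer 2/3 nuclei was 11.19% in control mouse 3 and 8.85% to 9.15% in the others. Each mouse had 5000 barcodes in its table. Control mouse 3 kept 4959 of them, 0 under 1000 UMIs, against 196 to 522 kept nuclei under 1000 UMIs in the other control mice. In nuclei with at least 1000 genes the share was 12.2% in control mouse 3 and 11.3% to 11.8% in the others. The part of depth in this gap was not tested.

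The CUS effect differed between layer 2/3 and Rorb-gated nuclei, by edgeR's test of the difference, for Slc1a3 (-1.63), Luzp2 (-0.82), Gpc5 (-1.01) and Lsamp (-0.35), as log2 values of layer 2/3 minus Rorb-gated. None of these calls held once nuclei with a doublet score above 0.2 were left out. From Gad-gated nuclei it differed for Pde7b (0.64), Slc4a4 (-0.66), Asap2 (0.80) and Man1a (-0.62).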

How the results depend on the processing

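The 55 calls in layer 2/3 nuclei became 147 with edgeR's likelihood ratio test, 33 without TMM factors, 120 without a filter on low counts, 117 in members with a Slc17a7 UMI, 35 with the doublet filter, 13 after thinning to 1000 UMIs, where fewer genes could be tested, 30 in members without an oligodendrocyte, microglia or endothelial UMI and 11 in those without another astrocyte-list UMI, the last chosen after seeing the data. Of the 3055 members, 1395 had no oligodendrocyte, microglia or endothelial UMI, 940 no other astrocyte-list UMI and 1457 a Slc17a7 UMI, so these sets also held fewer nuclei. The calls ranged from 15 (without CUS mouse 1 or CUS mouse 4) to 624 (without CUS mouse 2) when 1 mouse was left out. With the split by mitochondrial share as a term, also chosen after seeing the data, 267 genes passed, and Grm3, Homer1, Yy1, Unc5d, Astn2, Negr1 and Rps21 gained a call. None of the 55 changed direction in the settings that gave it a value, which for many did not include thinning. Differences from Rorb-gated nuclei numbered 18 by likelihood ratio test, 0 with the doublet filter and 6 to 17 with 1 mouse left out. Those from deep-layer-gated nuclei numbered 4 and, with 1 mouse left out, 0 to 3, and those from Gad-gated nuclei 35 and 4 to 21. The difference in the layer 2/3 share, of 0.0389 percentage points, was -0.568 with at least 4 of the 9 genes, -0.143 with the doublet filter, -0.236 after thinning, 0.958 with at least 2 genes, 0.992 with at least 1000 genes per nucleus and -0.644 to 0.594 with 1 mouse left out. The Yy1 difference was -4.15, -4.61, -5.23 and -2.01 points with at least 2 genes, at least 4 genes, the doublet filter and thinning before the rule. With 1 mouse left out it was -6.39 to -4.37 points. Its exact permutation p was 0.0857 without control mouse 1 or control mouse 2, and 0.0571 without CUS mouse 2 or CUS mouse 3. The groups stayed separate in these sets, since leaving out a mouse cannot make them overlap. These p-values therefore do not show that the separation rested on those mice. The log2 fold change of Ctcf, which did not pass, was -0.013 with at least 4 genes, -0.0051 with at least 1000 genes per nucleus, -0.039 without glial UMIs and -0.071 to 0.10 with 1 mouse left out. After thinning, the log2 fold change of Wapl was 0.042. The cause of these shifts was not tested.

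Mice of the same number are not known to share more than that number, and the correlations of their deviations were 0.16, -0.05, 0.24 and -0.18. The pairs of mice 1 and of mice 3, with the positive values, each lay on the same side of the split by mitochondrial share. The pairs of mice 2 and of mice 4 lay across it. With the replicate block 64 genes passed, and the Yy1 difference of -5.55 points had an exact permutation p of 0.125, the smallest that 4 pairs allow. Permuted within the split by mitochondrial share, it had an exact permutation p of 0.0556, the smallest possible there.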
